A study of Mus musculus with 2 samples.

Results

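Transcripts of 10 BCL2 family genes, of the 32285 genes counted, were followed across the cell lineages of digested mouse bone and marrow. The 10 genes were chosen by name. Of these, 4 encode proteins that protect cells from apoptosis (Bcl2, Bcl2l1, Bcl2l2 and Mcl1) and 6 encode proteins that promote it (Bax, Bak1, Bcl2l11, Bbc3, Pmaip1 and Bid). The cells came from the femurs and tibiae of 3 untreated male INK-ATTAC mice aged 24 months, pooled before capture into 1 biological sample. INK-ATTAC is a transgene in which a p16 promoter drives a caspase that a drug can switch on, so that p16-expressing cells can be killed, and these mice did not get the drug. Red cells were lysed, cells carrying lineage markers (Ter-119 of erythroid cells among them) were depleted on magnets, and live CD45- cells were sorted, so every lineage described here is what this preparation left behind. The 3′ ends of transcripts were counted with unique molecular identifiers (UMIs), which mark single captured molecules.

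The BCL2 family sets the threshold at which a cell opens its outer mitochondrial membrane and commits to apoptosis. Anti-apoptotic members hold the pore formers BAX and BAK in check. BH3-only members, such as BIM, PUMA, NOXA and BID, are induced or activated by stress and either bind the anti-apoptotic members or activate the pore formers. Red cell precursors are known to rely on BCL-XL, the product of Bcl2l1, late in their maturation, and platelets on the same protein for their lifespan, whereas BCL2 itself is best known from lymphocytes. MCL1 is a short-lived protein needed by many blood lineages.

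Bcl2 showed the largest difference between LEPR stromal and erythroid cells and Bcl2l1 the largest along the globin bins of the erythroid cells, and the 250 bases upstream of their annotated starts are shown here so that the start regions of these 2 genes can be set side by side. Both sequences come from RefSeq (build GRCm38.p6), are written 5′ to 3′ on the gene's own strand (the minus strand in both cases) and overlap no annotated exon. Capitals mark GC boxes (GGGCGG on either strand), letters known as a binding sequence of SP-family factors.
Bcl2, chr1:106714291-106714540, minus strand: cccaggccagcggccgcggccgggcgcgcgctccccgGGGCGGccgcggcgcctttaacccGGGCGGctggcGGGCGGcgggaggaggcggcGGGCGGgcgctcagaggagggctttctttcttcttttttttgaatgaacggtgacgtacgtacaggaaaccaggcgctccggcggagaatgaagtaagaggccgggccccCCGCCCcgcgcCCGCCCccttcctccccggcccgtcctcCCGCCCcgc
Bcl2l1, chr2:152831729-152831978, minus strand, farthest upstream of 3 annotated starts: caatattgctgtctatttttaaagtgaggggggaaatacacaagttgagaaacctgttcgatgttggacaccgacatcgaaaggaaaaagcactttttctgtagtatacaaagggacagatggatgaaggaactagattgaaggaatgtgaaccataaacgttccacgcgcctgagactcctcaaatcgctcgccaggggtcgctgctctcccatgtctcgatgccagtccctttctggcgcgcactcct
The Bcl2 window was 74.8% G or C, with 36 CG pairs and 7 GC boxes. The Bcl2l1 window was 47.6% G or C, with 12 CG pairs and no GC box. Among 32851 RefSeq windows of the same length, 32.7% held at least 1 GC box. The other motifs searched, GATAA, TTCNNNGAA and CACCC, are known from blood cell and cytokine-driven genes, and none was in either window on either strand. They were in 22.6%, 7.02% and 52.0% of all windows. These are matches of letters, and binding was not measured.

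On the mm10 assembly (GRCm38), the GENCODE annotation places Bcl2 on chromosome 1 (106538178 to 106714274, minus strand), Bcl2l1 and Bcl2l11 on chromosome 2 (152780668 to 152831728, minus, and 128126038 to 128162547, plus), Mcl1 on chromosome 3 (95658788 to 95663176, plus) and Bcl2l2 on chromosome 14 (54883377 to 54888234, plus). Bax and Bbc3 lie on chromosome 7 (45461697 to 45466898, minus, and 16308393 to 16318205, plus), Bak1 on chromosome 17 (27019810 to 27029009, minus) and Bid on chromosome 6 (120891930 to 120916853, minus). None overlaps a counted gene on its own strand, whereas Bcl2, Bak1 and Bid each overlap 1 on the other strand (D630008O14Rik, Ggnbp1 and Bcl2l13), whose reads a count without strand could not tell apart.

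Lineages were read from the counts of 9573 barcodes that held at least 200 genes and at most 20% mitochondrial UMIs, out of 11056 in the files. LEPR stromal cells (1877 barcodes) held a Lepr UMI and at least 5000 CPM of Cxcl12 (CPM being a gene's UMIs scaled to a common library total of 1000000), the chemokine that holds blood stem cells in marrow. Fibroblast (91 barcodes), endothelial (46), megakaryocyte (89) and erythroid (6862) barcodes were taken by the summed level of marker lists. Erythroid barcodes were split by the share of their UMIs in globin genes into bins of under 0.5% (1917 barcodes), 0.5 to 1% (835), 1 to 2.5% (1711), 2.5 to 6% (1579) and 6% or more (820), as a scale of hemoglobin accumulation. The gates used the marker lists, so marker levels are given as a description. Klf1, an erythroid master regulator, stood at 279 CPM in erythroid barcodes, Cdh5, an endothelial cadherin, stood at 1071 CPM in endothelial barcodes and was at 0 in fibroblasts and megakaryocytes. Single UMIs do not tell the groups apart, since the erythroid barcodes also held UMIs of all 12 LEPR stromal, 13 fibroblast, 12 endothelial and 12 megakaryocyte markers, at sums of 109, 8.55, 19.3 and 25.5 CPM.

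The 2 deposited samples are labelled as replicates and are called lanes here. They held 116827845 and 120556381 UMIs and shared 10928 barcodes, with a correlation of 0.999858 between the log10 UMI totals of a barcode in the lanes. They are therefore 2 readings of the same cells, and agreement between them says nothing about other mice. The squared differences between the lanes came to 0.559 of the summed UMIs, where independent counts would give about 1. A molecule can thus be counted in both lanes, so UMIs summed over the lanes are not counts of molecules. With 1 biological sample there is no test between lineages. Levels below are CPM with an exact 95% Poisson interval on the mean of the lanes, ratios carry an exact 95% binomial interval, and both cover counting error only. Because 1 tag is counted per transcript whatever its length, levels were not divided by gene length. CPM is relative to a cell's RNA, so a lower level and more RNA of other genes cannot be told apart. That matters because the mean barcode held 5727 UMIs in LEPR stromal cells and 31179 in erythroid cells, both lanes summed.

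**Figure D1:**
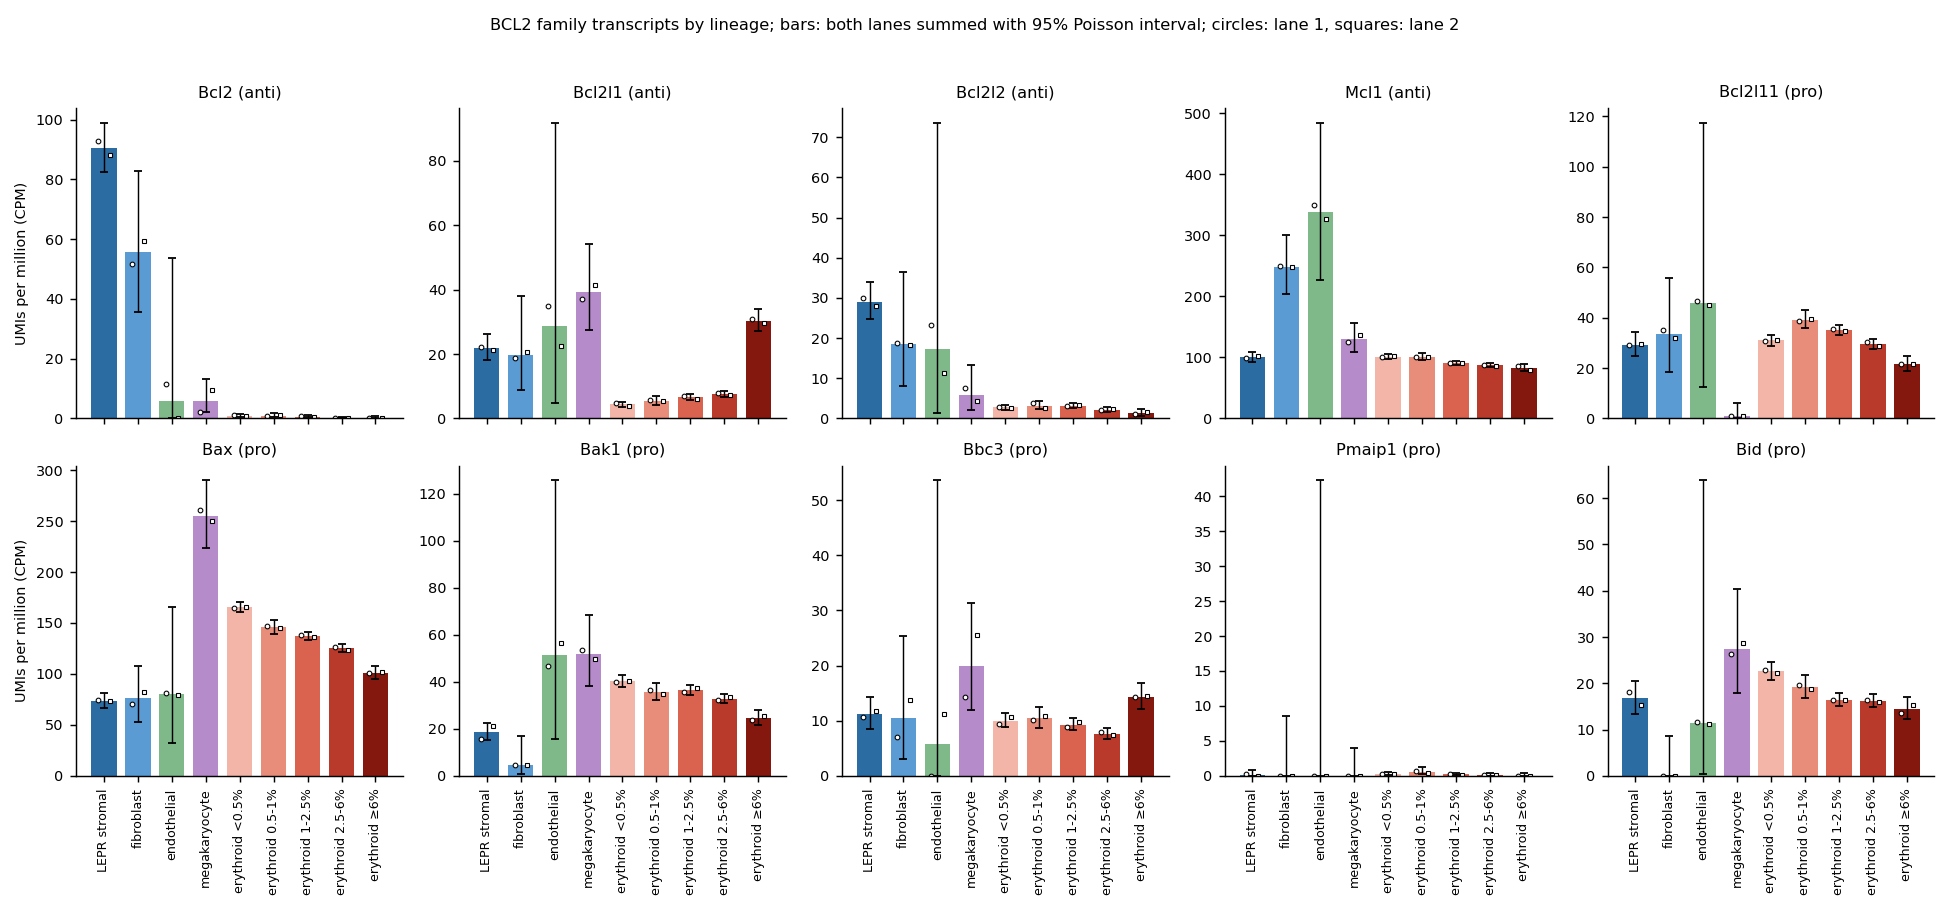
Level of each of the 10 members (CPM, linear axis with its own range in each panel) in the 4 non-erythroid lineages and the 5 erythroid globin bins. Columns give both lanes together, error bars the exact 95% Poisson interval, and circles and squares the lanes. Bcl2 stands at 90.4 CPM in LEPR stromal cells and below 1 CPM in every erythroid bin, whereas Mcl1 lies between 82.6 and 338 CPM in all 9 groups.

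Bcl2, the founding anti-apoptotic member, was a transcript of the mesenchymal lineages. LEPR stromal cells held 490 and 482 UMIs of it in the lanes, 90.4 CPM (82.6 to 98.8), and fibroblasts 55.6 CPM (35.6 to 82.7). Megakaryocytes stood at 5.92 CPM (2.05 to 13.3) on 2 and 9 UMIs in the lanes, 2.19 and 9.54 CPM, and the 46 endothelial barcodes at 5.73 CPM, the latter on 1 UMI. The 6862 erythroid barcodes held 65 and 58 UMIs, 0.575 CPM. From the least to the most globin-rich bin the level was 0.958, 0.958, 0.650, 0.165 and 0.201 CPM, and only the step from 0.650 to 0.165 CPM exceeded counting error (log2 ratio -1.98, -3.75 to -0.52). LEPR stromal cells exceeded erythroid cells 157-fold (log2 ratio 7.30, 6.91 to 7.70) and fibroblasts by a log2 ratio of 0.70 (0.11 to 1.36).

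After every barcode was thinned to 2000 UMIs, 16.6% of LEPR stromal cells and 0.0773% of erythroid cells still held a Bcl2 UMI (unthinned, 29.0% and 1.02%, at median depths of 5188 and 25300 UMIs). LEPR stromal marker RNA amounted in erythroid barcodes to 0.323% of its level in LEPR stromal cells, a share that would carry 0.292 of the 0.575 CPM of Bcl2. In endothelial barcodes Lepr and Adipoq each stood at 5.73 CPM, against 1568 and 1149 CPM in LEPR stromal cells, while Cxcl12 stood at 3139 against 22189 CPM. The LEPR stromal list as a whole amounted there to 11.9% of its stromal level, most of it Cxcl12. A share of that size would carry 10.8 CPM of Bcl2 against the 5.73 measured, but Lepr and Adipoq lay far below that share. Where the Bcl2 UMI came from was not tested.

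Within the LEPR stromal cells, Bcl2 stood at 89.2 CPM in those with a UMI of Adipoq, the adipocyte-lineage hormone, and at 101 CPM in those without, and at 86.2 and 100.2 CPM in the deeper and the shallower barcodes. The 87 LEPR stromal barcodes that also passed the gate of another lineage had 61.0 CPM and the remainder 92.9 CPM. In a clustering made without the members, a shallow LEPR stromal cluster of 158 cells (median 1860 UMIs) had 43.8 CPM of Bcl2, and the largest one, of 1608 cells (median 5543), had 91.6 CPM. An unnamed shallow cluster of 290 cells (median 2308 UMIs), 152 of them in the LEPR stromal gate, had 102 CPM.

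Bcl2l2, which encodes BCL-W, was also highest in LEPR stromal cells and lowest in the erythroid bins. LEPR stromal cells held 159 and 153 UMIs, 29.0 CPM (24.7 to 34.0), fibroblasts 18.5 CPM, endothelial cells 17.2 CPM and megakaryocytes 5.92 CPM. Erythroid bins ranged from 3.22 down to 1.36 CPM. LEPR stromal cells exceeded erythroid cells 11.1-fold (log2 ratio 3.47, 3.17 to 3.75), while fibroblasts and LEPR stromal cells did not differ beyond counting error. Over the 9 groups, Bcl2 and Bcl2l2 were the pair of members most alike, with a correlation of log2(CPM + 1) of 0.93. The 9 groups share 1 sample, so this is a description.

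Bcl2l1, which encodes BCL-XL, had another order. Megakaryocytes held the most, 39.3 CPM (27.6 to 54.3), followed by the erythroid bin with 6% or more globin at 30.4 CPM (27.0 to 34.0), endothelial cells at 28.6 CPM, LEPR stromal cells at 21.8 CPM (18.0 to 26.1) and fibroblasts at 19.7 CPM. None of these neighbours differed beyond counting error. In that erythroid bin the 303 barcodes under 10000 UMIs stood at 449 CPM. The 517 deeper ones stood at 11.6 CPM, below the 21.8 CPM of LEPR stromal cells. The first 4 erythroid bins were lower, at 4.34, 5.53, 6.60 and 7.56 CPM. Against all erythroid barcodes, LEPR stromal cells had 2.58-fold more Bcl2l1 in CPM (log2 ratio 1.37, 1.08 to 1.65), a direction that reversed to a log2 ratio of -0.87 in the mean of each cell's CPM and to -0.90 against erythroid barcodes under 10000 UMIs. In UMIs per cell the ratio was -1.08, which is the ratio in CPM moved by the -2.44 that this scale takes off every gene.

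Mcl1 was the most abundant anti-apoptotic member in every one of the 9 groups, although in LEPR stromal cells its interval overlapped that of Bcl2. It reached 338 CPM (227 to 484) in endothelial cells and 249 CPM (204 to 301) in fibroblasts, and 131 CPM in megakaryocytes. LEPR stromal cells held 527 and 555 UMIs, 101 CPM (92.4 to 110), within the erythroid range of 82.6 to 101 CPM. Fibroblasts exceeded LEPR stromal cells by a log2 ratio of 1.31 (0.99 to 1.61) and endothelial cells exceeded them by 1.75 (1.16 to 2.28). Mcl1 is also an immediate early gene in many cells. Among LEPR stromal cells split into 3 equal parts by the summed level of 12 immediate early genes, the Mcl1 level was 82.7 CPM (69.9 to 97.2), 93.3 CPM and 127 CPM (111 to 145) from the lower to the upper part, whereas Bcl2 stood at 86.9, 88.4 and 96.2 CPM. The same genes summed to 12588 CPM in fibroblasts, 3747 CPM in endothelial cells and 3579 CPM in LEPR stromal cells. Digestion of the tissue can induce them, and their part in the Mcl1 levels was not tested.

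The pore former Bax was highest in megakaryocytes, at 255 CPM (224 to 290), while LEPR stromal cells, with 391 and 402 UMIs, stood at 73.8 CPM. Fibroblasts at 76.4 CPM and endothelial cells at 80.2 CPM did not differ from them beyond counting error. In erythroid cells it stepped down with globin, from 165 CPM through 146, 137 and 125 to 101 CPM, each step beyond counting error. The steps were those of the barcodes with at least 10000 UMIs, at 179, 156, 142, 128 and 104 CPM, whereas barcodes with fewer stood between 36.6 and 48.1 CPM in all 5 bins with overlapping intervals. LEPR stromal cells were below all erythroid cells by a log2 ratio of -0.90 (-1.05 to -0.76) but above the erythroid barcodes under 10000 UMIs, nearer to their own depth, by 0.78 (0.55 to 1.01). Erythroid marker RNA in LEPR stromal cells amounted to 8.18% of its erythroid level, which would carry 11.3 of their 73.8 CPM of Bax.

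Bak1, the other pore former, stood at 51.7 CPM in megakaryocytes and 51.6 CPM in endothelial cells, the latter on 4 and 5 UMIs. It was lower in LEPR stromal cells, at 18.5 CPM, and lowest in fibroblasts, at 4.63 CPM. Across the erythroid bins it went from 40.1 to 24.6 CPM. LEPR stromal cells were below all erythroid cells by a log2 ratio of -0.92 (-1.22 to -0.63), whereas the ratio to erythroid barcodes under 10000 UMIs was 0.32 (-0.10 to 0.75).

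Among the BH3-only members, Bcl2l11, which encodes BIM, was nearly missing from megakaryocytes. They held 2 UMIs over both lanes, 1.08 CPM, against 29.3 CPM in LEPR stromal cells, 33.6 CPM in fibroblasts, 45.8 CPM in endothelial cells and 21.7 to 39.3 CPM in the erythroid bins. The log2 ratio of megakaryocytes to erythroid cells was -4.88 (-10.19 to -2.40). Erythroid marker RNA in megakaryocytes amounted to 5.26% of its erythroid level, which would carry 1.67 CPM of Bcl2l11, more than the 1.08 CPM measured.

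Bbc3, which encodes the p53 target PUMA, stood between 5.73 and 19.9 CPM in all 9 groups, with the highest value in megakaryocytes, which did not exceed the erythroid bin with 6% or more globin beyond counting error. Bid, which links death receptors to mitochondria, stood at 16.7 CPM in LEPR stromal cells, 27.5 CPM in megakaryocytes and 14.5 to 22.6 CPM in the erythroid bins. Fibroblasts held 0 Bid UMIs, which allows up to 6.95 CPM by a limit of 3 UMIs and up to 8.54 CPM by the Poisson interval.

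Pmaip1, which encodes NOXA, was hardly detected. LEPR stromal cells held 1 UMI over both lanes, 0.0930 CPM, and the 6862 erythroid barcodes reached at most 0.566 CPM, in the bin with 0.5 to 1% globin. It had too few UMIs for any comparison.

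The comparisons were then read against all genes. A gene entered a comparison with at least 50 UMIs over its groups, and was called at a log2 ratio of at least 1 in size. Between LEPR stromal and erythroid cells, 44.6% of 12474 genes were called higher and 19.8% lower. Of the members, 9 entered, 3 were higher (Bcl2, Bcl2l2 and Bcl2l1) and 0 were lower, so the count of calls was no larger a share than among all genes. The 4 anti-apoptotic members had a median log2 ratio of 2.42, the 5 pro-apoptotic members that entered had -0.12, and all genes had 0.71. The roles overlapped, with Mcl1 at 0.12 and Bbc3 at 0.22. Against the erythroid barcodes under 10000 UMIs alone, Bcl2 stood at 7.81, Bcl2l2 at 3.17 and Bcl2l11 at -1.27 (-1.54 to -1.01). In UMIs per cell, a scale that shifts every gene by -2.44, 2 members were higher (Bcl2 and Bcl2l2) and 7 lower, against 19.6% and 62.6% of all genes.

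**Figure D2:**
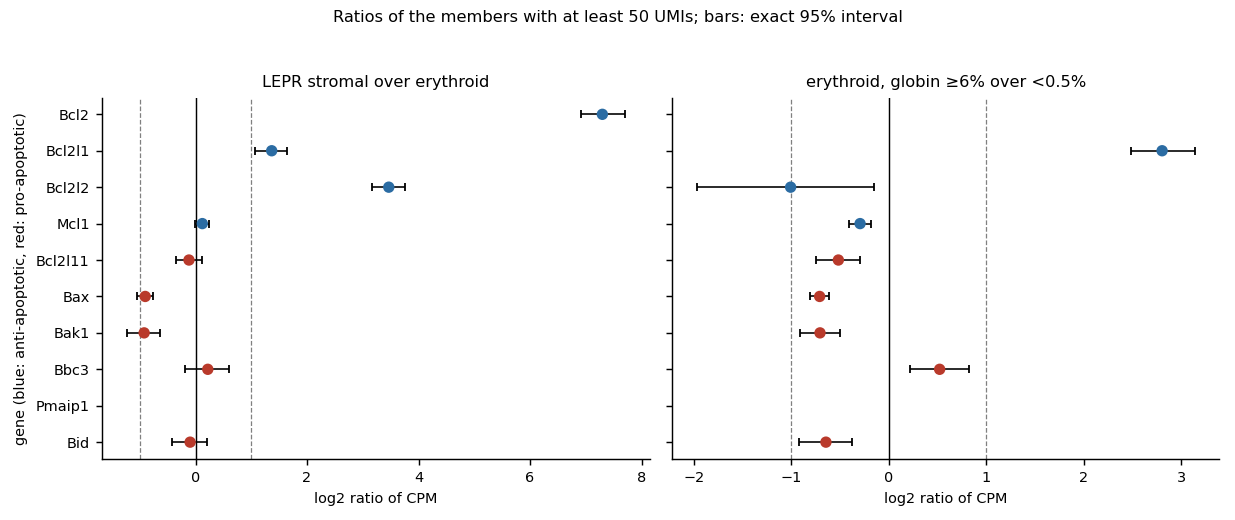
Log2 ratios of CPM for the members with at least 50 UMIs, with bars for the exact 95% binomial interval, for LEPR stromal against erythroid cells and for 6% or more against under 0.5% globin. Bcl2 lies at 7.30 and Bcl2l2 at 3.47 between LEPR stromal and erythroid cells, while Bax and Bak1 lie at -0.90 and -0.92.

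Fibroblasts against LEPR stromal cells gave 1 higher member (Mcl1) against a background of 6.87% and 2 lower members (Bak1 and Bid) against 23.4%, of 9 that entered. Endothelial against LEPR stromal cells gave 2 higher (Mcl1, and Bak1 with an interval of -0.29 to 2.81) against 10.5% and 1 lower (Bcl2) against 33.9%. Megakaryocytes against LEPR stromal cells gave 2 higher (Bax at a log2 ratio of 1.79, 1.55 to 2.03, and Bak1 at 1.48) against 15.7%. They gave 3 lower members (Bcl2, Bcl2l2 and Bcl2l11) against 44.9%. Against erythroid cells, megakaryocytes gave 4 higher members against 23.1%, which were Bcl2 at 3.37 (1.79 to 4.61, with 1.83 and 4.16 in the lanes), Bcl2l1 at 2.22 (1.70 to 2.70), Bcl2l2 at 1.17 (-0.37 to 2.36) and Bbc3 at 1.06 (0.31 to 1.71). Bcl2l11 alone was lower, against 28%. The fibroblast, endothelial and megakaryocyte groups hold 91, 46 and 89 barcodes, and all 3 comparisons with LEPR stromal cells use the same stromal cells.

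Summed over the family, the anti-apoptotic share of UMIs split the lineages. It was 61.8% (59.7 to 63.9) in LEPR stromal cells, 73.3% (66.6 to 79.2) in fibroblasts and 66.7% (52.1 to 79.2) in endothelial cells. It was 33.9% (29.7 to 38.2) in megakaryocytes and 30.9% (30.5 to 31.4) in erythroid cells, where the bins gave 28.8%, 30.5%, 30.2%, 31.4% and 39.4%. Of these members, the stromal and vascular groups thus held more anti- than pro-apoptotic transcripts, and the megakaryocyte and erythroid groups fewer. Other pro-apoptotic genes were not in the sum. Bad stood at 40.1 CPM in LEPR stromal cells and 54.9 CPM in megakaryocytes, and Bik at 80.2 CPM in endothelial cells. What they would do to the shares was not tested. The sum compares transcripts counted in 1 way, and says nothing of protein amounts, capture of each gene or BH3-only activity.

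The share rested on Mcl1 to an unequal extent. Mcl1 gave 41.6% of the anti-apoptotic UMIs in LEPR stromal cells and Bcl2 37.4%, whereas Mcl1 gave 72.6% in fibroblasts, 86.8% in endothelial cells, 71.9% in megakaryocytes and between 72.1% and 92.7% in the erythroid bins. Without Mcl1 the share became 48.6% (46.1 to 51.1) in LEPR stromal cells, 42.9% (32.7 to 53.5) in fibroblasts, 20.9% (6.62 to 43.7) in endothelial cells, 12.6% in megakaryocytes and 4.77% in erythroid cells. Erythroid barcodes under 10000 UMIs gave a log2 ratio of anti- to pro-apoptotic UMIs of -0.22 (-0.35 to -0.09), against -1.16 in all erythroid barcodes and 0.69 in LEPR stromal cells. The order of LEPR stromal cells above the pooled erythroid cells held on both sums, whereas the majority of anti-apoptotic UMIs in LEPR stromal cells was lost without Mcl1. It did not hold for the erythroid barcodes with 6% or more globin and under 10000 UMIs. These stood above LEPR stromal cells on both sums, at 74.0% with Mcl1 and 71.1% without it. On the pro-apoptotic side Bax gave 49.3% of the UMIs in LEPR stromal cells, 59.3% in erythroid cells and 71.8% in megakaryocytes.

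**Figure D3:**
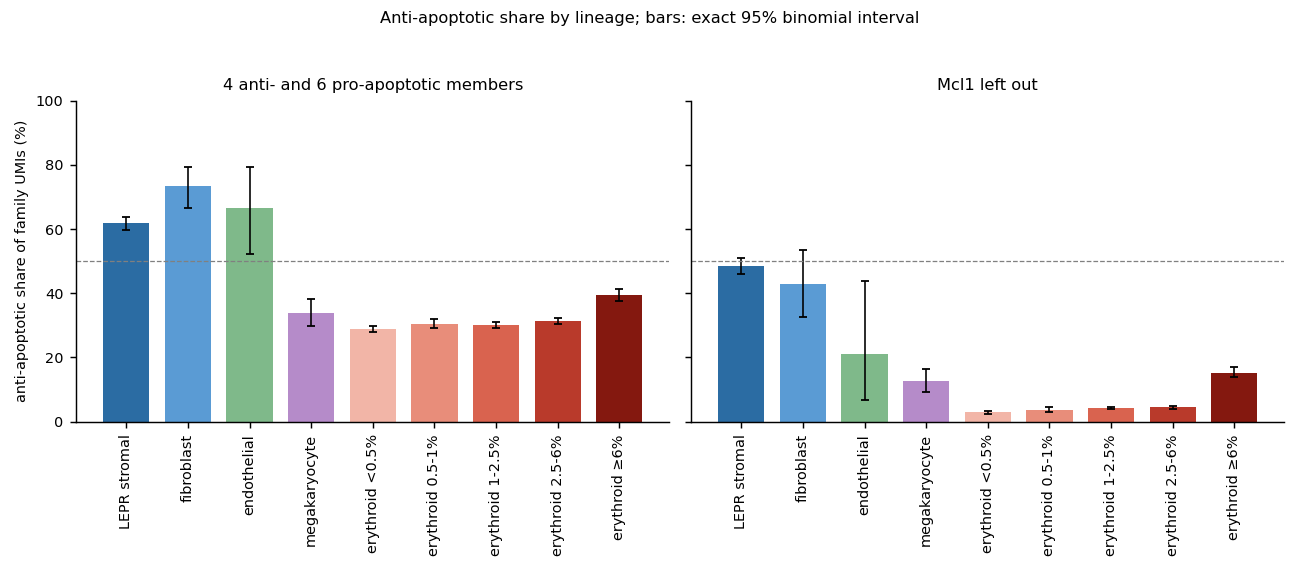
Anti-apoptotic share of all UMIs of the 10 members (percent), by lineage and erythroid globin bin, with all members and with Mcl1 left out, and with bars for the exact 95% binomial interval. LEPR stromal cells stand at 61.8% with Mcl1 and 48.6% without it, and erythroid bins under 6% globin stand between 28.8% and 31.4% with it.

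Single barcodes were read in the same way. After thinning to 2000 UMIs, 27.0% of LEPR stromal cells held UMIs of anti-apoptotic members only and 13.0% of pro-apoptotic members only, 8.80% held both and 51.2% neither. In megakaryocytes 13.5% held the anti-apoptotic and 37.8% the pro-apoptotic members only. In the erythroid bin under 0.5% globin the shares were 12.0% and 27.3%, and in the bin with 6% or more they were both 18.3%. Thinning left out 126 LEPR stromal cells, 15 megakaryocytes, 69 barcodes of the first erythroid bin and 180 of the last.

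Along the globin bins, 8 members entered the comparison of the bin with 6% or more with the bin under 0.5%. Bcl2l1 was 6.99-fold higher (log2 ratio 2.81, 2.48 to 3.14), against a background of 4.49% of 9576 genes called higher. Bcl2l2 was called lower at -1.01 (-1.97 to -0.15), just past the limit of the call, against 28%. At -0.99 in barcodes of at least 10000 UMIs it was not called, nor under several other settings given below. Bax stood at -0.71, Bak1 at -0.70, Bid at -0.64, Bcl2l11 at -0.52, Mcl1 at -0.29 and Bbc3 at 0.52 (0.21 to 0.83). The median over the 8 members was -0.58 and over all genes -0.51, and 6 of the 8 members had negative ratios.

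The Bcl2l1 difference was carried by barcodes with few UMIs. Of the 820 barcodes with 6% or more globin, 303 held under 10000 UMIs, with a median of 1785. They held 190 and 193 Bcl2l1 UMIs in the lanes, 449 CPM (388 to 518). The 517 barcodes with at least 10000 UMIs, with a median of 36621, held 113 and 107, 11.6 CPM (9.51 to 14.0). The log2 ratio was 5.28 (4.93 to 5.63), and 5.23 and 5.33 in the lanes. The 2 sets had like levels of erythroid markers, 16348 and 15796 CPM over the list. They differed in median mitochondrial share, 0.485% and 2.74%, and in the nuclear RNA Malat1, 57529 and 4653 CPM. Globin genes summed to 162985 and 90381 CPM, the 7 plasma and B cell markers to 718 and 78.1 CPM and the immediate early genes to 1994 and 899 CPM. The part of these differences in the result was not tested.

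CPM depends on the total of a barcode, so UMIs per barcode were read too, summed over both lanes. The shallow barcodes held 1.26 Bcl2l1 UMIs each (1.09 to 1.46) and the deep ones 0.426 (0.350 to 0.513), so the higher level was there in UMIs per barcode as well. A Bcl2l1 UMI was present in 55.1% of the shallow barcodes (49.3 to 60.8) and 23.4% of the deep ones (19.8 to 27.3), although the former held far fewer UMIs. Mcl1 went the other way, with 0.198 UMIs per shallow barcode and 3.06 per deep one, while its CPM was 70.4 and 83.1.

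**Figure D4:**
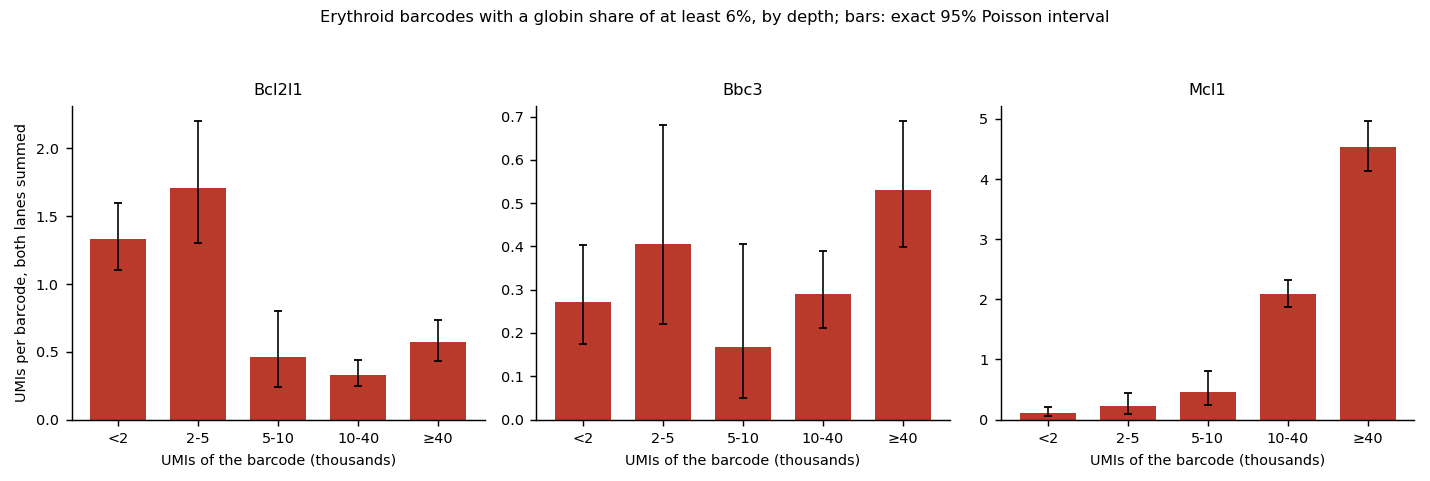
UMIs per barcode of Bcl2l1, Bbc3 and Mcl1, both lanes summed, in the barcodes with 6% or more globin grouped by total UMIs, with bars for the exact 95% Poisson interval. Bcl2l1 stands at 1.33 and 1.71 per barcode below 5000 UMIs and between 0.332 and 0.569 above, while Mcl1 goes from 0.111 to 4.54.

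Narrower depth bins placed the high Bcl2l1 level below 5000 UMIs. Barcodes under 2000 UMIs (180 barcodes) had 907 CPM and those of 2000 to 5000 UMIs (69) had 607 CPM. Those of 5000 to 10000 UMIs (54) had 63.5 CPM, those of 10000 to 40000 (313) 12.6 CPM and those of at least 40000 (204) 10.8 CPM. A Bcl2l1 UMI was found in 60.0% of barcodes in the shallowest bin and 71.0% in the next. By globin share the level was 15.5 CPM at 6 to 10% (498 barcodes), 58.7 CPM at 10 to 20% (248) and 252 CPM at 20% or more (74).

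Bbc3 shared the CPM pattern but not the per-barcode one. It stood at 101 CPM (73.0 to 136) in the shallow and 10.5 CPM in the deep barcodes, a log2 ratio of 3.27 (2.72 to 3.80), but at 0.284 and 0.385 UMIs per barcode, with intervals that overlap. Both pore formers were lower in the shallow set, with Bax at 48.1 against 104 CPM and Bak1 at 1.17 CPM from 1 UMI against 25.7 CPM. The BH3-only member Bid stood at 4.69 CPM from 4 UMIs against 14.9 CPM, with an interval of the log2 ratio that includes 0 (-4.73 to 0.21). Of 7 members that entered, 2 were higher against a background of 10.4% of 6989 genes, and 3 lower against 36.2%. Their median was -0.24 and that of all genes -0.65.

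The family balance differed with depth in the same bin. Anti-apoptotic members gave 74.0% (68.6 to 78.9) of family UMIs in the shallow barcodes, on 444 anti- and 156 pro-apoptotic UMIs, and 35.3% (33.5 to 37.2) in the deep ones. Here leaving out Mcl1 changed little in the shallow set, at 71.1%, since Bcl2l1 carried the sum, and gave 6.95% in the deep set. Among barcodes of at least 10000 UMIs alone, the bin with 6% or more globin had 11.6 CPM of Bcl2l1 and the bin under 0.5% had 4.26 CPM, a log2 ratio of 1.44 (1.03 to 1.86). It was the 1 member called among 8, against a background of 4.25% higher and 26.5% lower.

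A clustering made without the 10 members put 227 of the 303 shallow barcodes into 1 cluster of 249 cells, with a median of 1640 UMIs and 13 of the 16 erythroid markers. Its leading genes included Tmcc2, Slfn14, Xpo7 and Bpgm, the last being the enzyme that makes bisphosphoglycerate in red cells. Bcl2l1 stood at 854 CPM and Bbc3 at 160 CPM in it. The cluster was given no cell type name, since its median depth was low for the sample and no erythroid marker stood among its 10 leading genes.

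**Figure D5:**
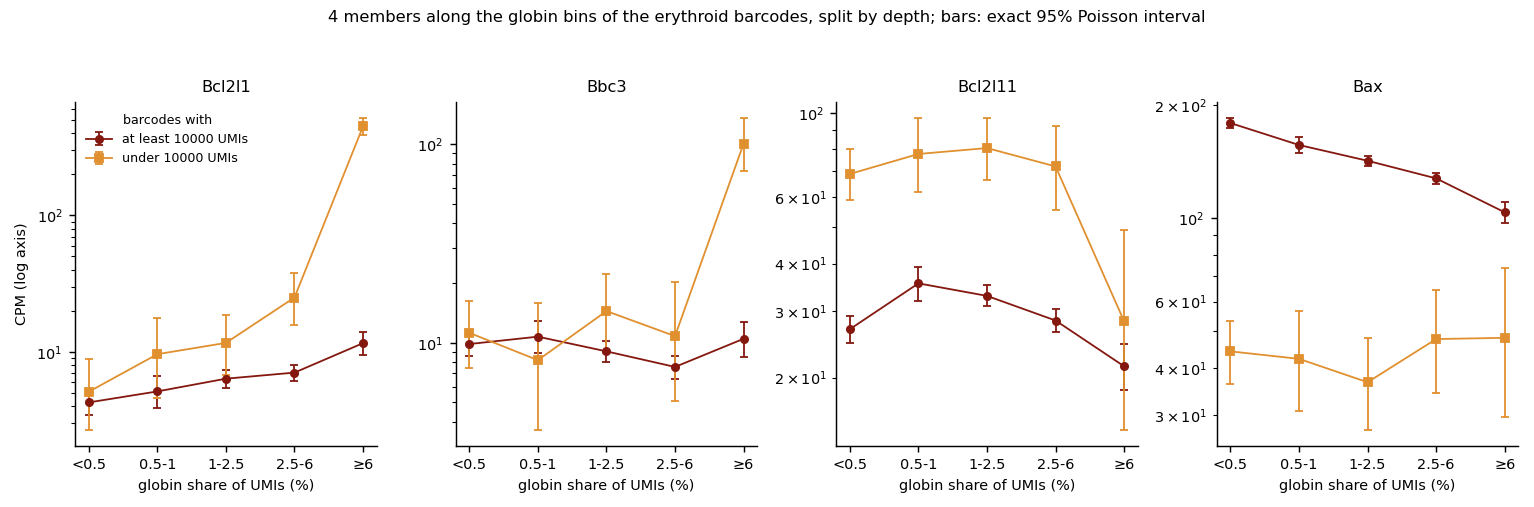
CPM (log axis) of Bcl2l1, Bbc3, Bcl2l11 and Bax along the 5 globin bins of the erythroid barcodes, drawn separately for barcodes with at least and under 10000 UMIs, with bars for the exact 95% Poisson interval. Bcl2l1 and Bbc3 differ most by depth in the bin with 6% or more globin (449 against 11.6 CPM for Bcl2l1), and Bax is lower in the shallow barcodes there, at 48.1 against 104 CPM.

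Below 6% globin, other members differed with depth. The 2097 barcodes under 10000 UMIs (median 5571) had 73.9 CPM of Bcl2l11 and the 3945 deeper ones (median 46885) had 30.2 CPM, a log2 ratio of 1.29 (1.14 to 1.44). Bax stood at 42.6 against 148 CPM (-1.80, -1.99 to -1.62) and Bak1 at 15.8 against 37.4 CPM (-1.24). Mcl1 was close to even at 0.07. Thus 1 of 9 members was higher, against 17.2% of 10894 genes, and 2 were lower, against 10.6%. Immediate early genes summed to 2450 CPM in the shallow and 905 CPM in the deep barcodes and Malat1 to 14518 and 3535 CPM. The plasma and B cell markers summed to 390 and 65.3 CPM and the erythroid markers to 7351 and 12091 CPM. Their part in the result was not tested. Per barcode, Bcl2l11 was lower in the shallow set, at 0.408 against 1.40 UMIs. In the bin under 0.5% globin, barcodes with a UMI of Kit, the stem cell factor receptor of early progenitors, had 24.0 CPM of Bcl2l11 and 182 CPM of Bax, and those without had 38.1 and 149 CPM. The median depths were 37493 and 8098 UMIs, and the barcodes of the bin with at least 10000 UMIs stood at 26.8 and 179 CPM, so the split by Kit cannot be told apart from depth.

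Of 44 other genes of the pathway, 37 entered the comparison of LEPR stromal with erythroid cells. They split into 12 higher and 11 lower, with a median log2 ratio of 0.28, against 44.6% higher and 19.8% lower among all genes and their median of 0.71. Among 14 other BCL2 family genes, 8 entered. The pore former relative Bok (11.4 against 0.0608 CPM), the BH3-only gene Bmf (11.6 against 0.164 CPM) and the mitophagy gene Bnip3 (31.8 against 1.34 CPM) were higher. Bcl2l13 (15.8 against 55.5 CPM) and Bik (0 UMIs in LEPR stromal cells against 1.13 CPM) were lower. Bad, a BH3-only sensitizer, stood at 40.1 and 30.0 CPM.

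The same comparison, in which 44.6% of all genes were higher and 19.8% lower, was read by list. Of 5 death receptor genes that entered, 3 were higher in LEPR stromal cells and 0 lower. These were the TNF receptor gene Tnfrsf1a (192 against 0.767 CPM), Fas (13.6 against 0.182 CPM) and Cflar, which encodes the caspase-8 inhibitor FLIP (93.5 against 10.1 CPM). Of 5 inhibitor of apoptosis genes, Birc3, Xiap and Birc2 were higher at log2 ratios of 5.47, 1.69 and 1.61, and Birc5, which encodes the mitotic protein survivin, was lower at -3.59. Of 9 apoptosome and caspase genes 0 were higher and 3 lower, among them cytochrome c (Cycs, 51.6 against 221 CPM) and Htra2 (46.7 against 114 CPM). Of 5 mitochondrial pore and carrier genes, Vdac1, Vdac2, Vdac3 and Slc25a5 were lower and Slc25a4, an adenine nucleotide carrier of post-mitotic tissues, was higher (231 against 43.2 CPM). Of 5 genes listed with p53, Cdkn1a and Mdm4 were higher and Trp53 was lower (56.9 against 162 CPM).

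Along the globin bins 31 of the 44 entered, with 1 higher and 6 lower, against 4.49% and 28% of all genes, so neither share exceeds the background. Birc5 went from 317 CPM under 0.5% globin to 787 CPM at 6% or more. Slc25a4 went from 94.6 to 9.67 CPM and Trp53 from 218 to 99.4 CPM. Between the shallow and deep barcodes with 6% or more globin, 30 entered, with 3 higher and 13 lower, against 10.4% and 36.2% of all genes. Bnip3l, the mitophagy receptor that clears mitochondria from reticulocytes, stood at 754 against 182 CPM, the stress factor Foxo3 at 236 against 53.4 CPM and Cdkn1a at 25.8 against 11.5 CPM. All 5 pore and carrier genes were lower, Slc25a5 at 138 against 521 CPM.

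The genes whose levels ran most like a member's over the 9 groups were named by the correlation of log2(CPM + 1) among 10401 genes, as a description over groups of 1 sample. For Bcl2 these were Adam9 (0.998), Pofut2 and Impact. For Bcl2l2 they were Tmco3 (0.995), Atn1 and Dop1a, for Mcl1 Msn (0.987), Cd34 and Ankrd37, and for Bax Pfdn4 (0.995), Mrps23 and Timm10b. For Bcl2l1 the closest genes were Itsn1 (0.893), Gm8797 and Rnf11. That was the lowest first value of the 9 members that could be ranked, followed by Bbc3 with Grtp1 (0.916).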

How the data were processed

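Cells from 3 pooled mice were run on the 10x Genomics 3′ platform. The counts were deposited as 2 samples labelled as replicates, which are called lanes here. Per the labels and file headers, the authors aligned reads to mm10 and counted with Cell Ranger (parameters, and strand handling, not given in the sources used here), and the deposited files hold filtered raw UMI counts per gene and barcode. The study's own filter, under 200 genes or over 20% mitochondrial UMIs removed, was applied to the lanes summed by barcode, which left 9573 barcodes. It removed 339 for genes and 1144 for mitochondrial share, and 0 columns were left unused.

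Genes were followed in Python 3.11.15 with numpy 2.4.6, scipy 1.17.1 and pandas 2.3.3. A marker gate asked for at least 3 markers and a summed CPM of 5000 (fibroblast), 2000 (endothelial), 5000 (megakaryocyte), 3000 (erythroid) or 30000 (plasma and B cell), and barcodes passing several of these gates (33) or none (536) were not used. The LEPR stromal gate took precedence. Members and gene lists were chosen with earlier results of these data known, and the gates, the split at 10000 UMIs and the GC box were set after values were seen. Named genes are the members, the 44 listed pathway genes and the 3 genes most like each member. Genes needed 50 UMIs, as the mean of the lanes, over the groups compared. A count of 0 was read as allowing 3 UMIs of the lane mean. On simulated counts for LEPR stromal against erythroid cells (12474 genes, 200 changed), the 95% interval lay off 0 in the true direction for 81.5% of changed genes, and off 0 for 3.89% of unchanged genes. Scrublet in scanpy 1.11.5 called 186 doublets (1.94%), which were kept. Clustering used igraph 0.11.9. Alternatives were other cell filters, gates, scalings, depths and single lanes. The authors' Seurat objects were not used here. Genes were matched to GENCODE by identifier, 32158 of 32285. The values of 1 listed pathway gene are not reported here.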

Additional observations from a re-analysis of the deposited data

How the results depend on the processing

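No paired analysis was possible because the series holds 1 group. The count of members called between LEPR stromal and erythroid cells, 3, was 9 (2 higher and 7 lower, against 19.6% and 62.6% of all genes) in UMIs per cell and 3 to 4 in single lanes. Bcl2l1 was no longer called after thinning (2 higher, 0 lower, against 40.7% and 20.1%) or in the mean of each cell's CPM (2 and 0, against 42% and 20.3%). Against erythroid barcodes under 10000 UMIs, 2 members were higher and 1 lower, against 41.7% and 17.9%. The count along the globin bins, 2, was 1 (Bcl2l1) with a mitochondrial limit of 10%, at least 500 genes, doublet calls removed, CPM of UMIs other than globin and mitochondrial ones, marker thresholds doubled, clusters in place of gates, or barcodes of at least 10000 UMIs alone (added after the data were seen), with 3.62% to 5.49% of all genes higher in these settings, was 5 in the mean of each cell's CPM (2 higher, 3 lower, against 6.83% and 41.4% of all genes), 4 after thinning (2 and 2, against 5.99% and 29.1%) and in barcodes under 10000 UMIs alone (2 and 2, against 9.32% and 48.1%, added likewise), and was 1 to 2 in single lanes. The log2 ratio of anti- to pro-apoptotic UMIs in LEPR stromal cells, 0.69, was 0.90 after thinning, -0.083 without Mcl1, and 0.63 to 0.70 in single lanes. In erythroid cells, where it was -1.16, it was -0.59 in the mean of each cell's CPM, -0.94 after thinning, -4.32 without Mcl1, -1.22 in barcodes of at least and -0.22 in those under 10000 UMIs, and -1.17 to -1.15 in single lanes. Bcl2l1 between LEPR stromal and erythroid cells reversed from 1.37 to -0.87 in the mean of each cell's CPM, to -1.08 in UMIs per cell and to -0.90 against erythroid barcodes under 10000 UMIs. Along the globin bins it ranged from 1.34 (clusters) to 6.46 (barcodes under 10000 UMIs). The cause of these changes was not tested, except that UMIs per cell shift every gene by -2.44. Of 238 values of single members under 15 settings, 183 stayed within the interval of the value as reported, 52 moved out of it and 3, all of Bcl2l1, changed the sign of a called ratio. Among ratios not called, those of LEPR stromal to erythroid cells also changed sign for Bbc3 under 4 settings and for Mcl1, Bax (to 0.78), Bak1 (to 0.32) and Bid under 1 each, and Bax along the globin bins under 1 (to 0.12). All intervals cover counting error in 1 pool of 3 mice, so none speaks to other animals. In the 46 endothelial barcodes 1 UMI over both lanes is 5.73 CPM, so members other than Mcl1 rest there on few UMIs.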

Other observations

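Outside the lineages above, 39 barcodes passed the plasma and B cell gate. Mcl1, on which plasma cells are known to depend, stood at 452 CPM (398 to 511) in them, on 252 and 248 UMIs, and anti-apoptotic members gave 83.6% (79.0 to 87.5) of their family UMIs. Without Mcl1 that share was 19.5% (10.7 to 31.4). The group is small and was found in a CD45- sort.

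Barcodes over 20% mitochondrial UMIs were left out of every value above. The erythroid gate took 619 of them. Their Bcl2l11 level was 55.6 CPM, their Bax level 33.4 CPM and their Bcl2l1 level 14.5 CPM, against 31.8, 138 and 8.45 CPM in the erythroid barcodes that were kept. The LEPR stromal gate took 19, with 29.4 CPM of Bcl2 against 90.4 CPM in the cells kept.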
